A study of Phyllostachys nigra with 21 samples.

Results

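Alternative oxidase genes were taken as every gene whose annotation names an alternative oxidase or a ubiquinol oxidase, in any case, and 3 of the 42460 genes in the table met this rule. They were PH02Gene02263 and PH02Gene10197, both annotated by a rice match as ubiquinol oxidase 1a, and PH02Gene08774, annotated by a Brachypodium match as ubiquinol oxidase 1c. The 3 annotations all place the protein in the mitochondrion, in the name and in the Gene Ontology term. The rule reads the annotation text and uses no expression value.

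The libraries came from culms of black bamboo (Phyllostachys nigra, Pn), grown in pots in a greenhouse from field rhizomes and moved in the green stage to growth chambers at 4 °C (low temperature, LT) or 25 °C (room temperature, RT). Culms were taken before the treatment (CK) and after 1, 15 and 25 days, which gave the 7 groups CK, LT1d, RT1d, LT15d, RT15d, LT25d and RT25d with 3 libraries each. All groups were Pn with no transgene or added chemical named in the labels, and reads were placed on the genome of a related species, P. edulis. Culm tissue was sequenced in bulk, and the sources used here do not say which layers of the culm it held. A lower value could mean fewer cells of a type or less RNA per cell, and these cannot be told apart.

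Alternative oxidase is a di-iron enzyme of the inner mitochondrial membrane that takes electrons from ubiquinol and passes them to oxygen, making water. It bypasses the cytochrome pathway of complexes III and IV, and unlike them it pumps no protons, so energy is released as heat in place of ATP. In plants it is known as a stress response enzyme that rises in the cold and limits the formation of reactive oxygen species, and genes of the AOX1 type are the ones usually induced. Electrons reach the ubiquinone pool from complex I, from complex II, and from alternative NAD(P)H dehydrogenases, which also pump no protons.

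The libraries held 33957497 to 50338658 counts each (median 45608441). The commonest low count was 4, so a count is not a single read pair, and the counts of the 3 genes, from 126 to 3529 per library, overstate the molecules seen. Replicates of LT15d, LT25d and RT15d were the most alike. Their chi-square per gene was 1.45 to 1.79 after counts were divided by 4, against 4.90 to 87.7 in the other groups. A value of 1 would be counting noise alone, but the divisor is assumed from the commonest low count, and a smaller one gives larger values. The study's methods describe several shoots per treatment as biological replicates, but the labels do not say which shoots made which library, so p-values measure the spread between these libraries, part of which may be technical. The shared fit pools this spread over all 7 groups, so a p-value does not reflect the compared groups alone. RT25d varied most for PH02Gene02263 (SD 5.64 FPKM, other groups 0.666 to 2.17), and p-values that involve RT25d can understate its spread. CK replicate 1 stood apart from CK replicates 2 and 3 (r = 0.888 and 0.905 over log2 FPKM, against 0.985 between those), and RT25d replicates 1 and 3 also differed (r = 0.925). Values are FPKM, which is corrected for gene length and library size. Changes are log2 fold changes from edgeR, fitted with TMM scaling to the 29913 genes that reached an FPKM of 1 in 3 or more libraries. The TMM factors, which FPKM does not include, were 0.810 to 0.842 in LT1d and 0.837 to 0.842 in LT15d. They were 1.14 in LT25d, 1.07 to 1.16 in the RT groups and 0.822 to 1.02 in CK, so group orders in FPKM can differ from the log2 changes. A gene was called when its Benjamini-Hochberg adjusted p did not exceed 0.05 and its change reached 2-fold. The 3 members passed the filter in all 21 libraries.

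PH02Gene02263 lies on scaffold 23 of the P. edulis genome at bases 12983160 to 12985656 of the plus strand, a span of 2497 bases. PH02Gene10197 lies on scaffold 24 at bases 60972223 to 60977227 of the minus strand, a span of 5005 bases. PH02Gene08774 lies on scaffold 17 at bases 18822218 to 18824006 of the plus strand, a span of 1789 bases. The surroundings of the 1a genes resembled each other. Within 20 genes on each side, 12 annotation names were shared by the neighbourhoods of PH02Gene02263 (25 different names) and PH02Gene10197 (22 names), among them a MYB family factor PHL11, a glucose-6-phosphate 1-epimerase and a maltose excess protein. The neighbourhood of PH02Gene08774 (26 names) shared 2 names with that of each 1a gene. Reads from the 1a genes could be split between them where their sequences agree, and the sources used here do not give how such reads were counted. PH02Gene10198, an uncharacterized gene, lies 400 bases from PH02Gene10197, whereas the nearest neighbours of PH02Gene02263 and PH02Gene08774 are 23396 and 35614 bases away.

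Over the 21 libraries PH02Gene02263 had the highest mean level of the 3, 19.0 FPKM, above 77.7% of tested genes. PH02Gene10197 had a mean of 10.5 FPKM, above 62.3% of tested genes, and PH02Gene08774 had 6.31 FPKM, above 48.0%. The gene with the highest level was not the same in every group. PH02Gene02263 led in every LT library. By mean it also led in CK, PH02Gene08774 led in RT1d and PH02Gene10197 in RT15d and RT25d, although libraries of the leading genes overlapped in these groups.

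PH02Gene02263, a 1a gene, was the member that rose in the cold at each time. Before treatment its level was 11.2, 10.8 and 9.86 FPKM in CK replicates 1 to 3. After 1 day it was 28.7, 28.8 and 27.6 FPKM in LT1d against 8.99, 7.37 and 7.78 FPKM in RT1d. The LT1d libraries were all far above every RT1d and CK library, and the RT1d libraries were all below CK. After 15 days it was 32.1, 35.2 and 35.8 FPKM in LT15d against 14.0, 15.4 and 14.8 FPKM in RT15d. These were the highest levels of any member in any group, and the groups again did not overlap. After 25 days it was 27.0, 23.8 and 22.8 FPKM in LT25d against 18.2, 11.8 and 7.0 FPKM in RT25d. The groups stayed apart, but RT25d replicate 1 was 2.60 times as high as RT25d replicate 3.

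The order of its group means was LT15d (34.4 ± 2.02 FPKM, SD, n = 3), LT1d (28.3 ± 0.674), LT25d (24.5 ± 2.17), RT15d (14.7 ± 0.703), RT25d (12.3 ± 5.64), CK (10.6 ± 0.666) and RT1d (8.05 ± 0.840). RT15d overlapped RT25d, and RT25d overlapped CK, while the other neighbours in this order had no library in common range. In the TMM-scaled fit RT25d was at -0.07 log2 units from CK (SE 0.22), not called. All 9 LT libraries were above all 12 others.

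The change of LT over RT was 2.34 on the log2 scale after 1 day (SE 0.23, edgeR adjusted p = 1.30e-07), 1.62 after 15 days (SE 0.22, adjusted p = 8.22e-06) and 1.03 after 25 days (SE 0.22, adjusted p = 0.00113). In FPKM these were ratios of 3.52, 2.33 and 1.99. PH02Gene02263 was thus called higher at each time. The day 25 call lay close to the 2-fold limit and was lost at a log2 change of 0.95 without LT25d replicate 1, 0.97 without RT25d replicate 2 and 0.74 without RT25d replicate 3. The rise after 25 days was smaller than after 1 day by 1.31 log2 units, and this difference was called (adjusted p = 0.00159), but without RT25d replicate 1 it was -0.88 and was not called. The differences from day 1 to 15 (-0.72, adjusted p = 0.0655) and from day 15 to 25 (-0.59, adjusted p = 0.134) did not pass the test.

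**Figure D1:**
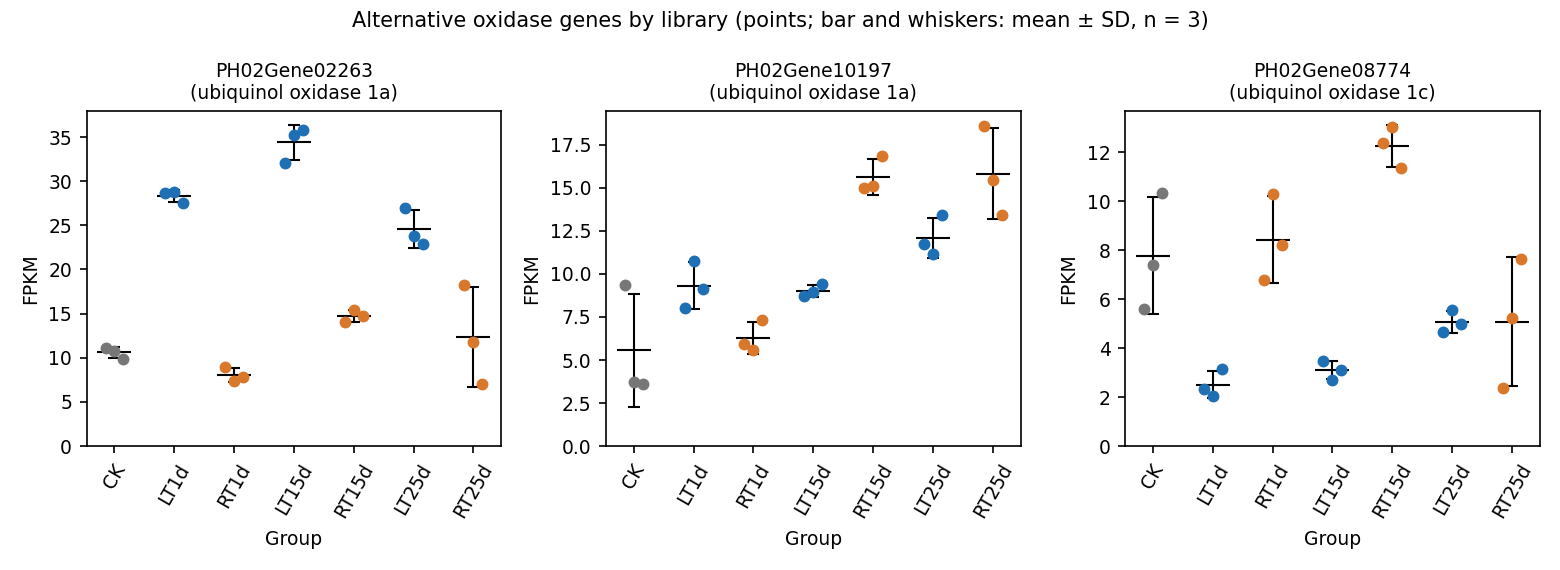
FPKM (vertical axes, each from 0 and on its own scale) of the 3 alternative oxidase genes in the 21 libraries by group, with LT in blue, RT in orange and CK in grey, and with bars and whiskers for the mean and SD of 3 libraries. The 9 LT libraries of PH02Gene02263 lie above the 12 others, while LT1d and LT15d are the lowest groups by mean for PH02Gene08774.

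PH02Gene08774, the 1c gene, went the other way in the first 15 days. Its level before treatment was 5.60, 7.38 and 10.3 FPKM in CK. After 1 day it was 2.34, 2.05 and 3.14 FPKM in LT1d against 6.79, 10.3 and 8.19 FPKM in RT1d. All LT1d libraries were below all RT1d and CK libraries. After 15 days it was 3.46, 2.71 and 3.11 FPKM in LT15d against 12.4, 13.0 and 11.3 FPKM in RT15d, the highest group for this gene. After 25 days it was 4.64, 5.55 and 4.98 FPKM in LT25d against 2.36, 5.25 and 7.63 FPKM in RT25d. The LT25d values lay inside the range of RT25d, whose lowest library was as low as those of LT1d.

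By group mean the order was RT15d (12.3 ± 0.849 FPKM, SD, n = 3), RT1d (8.43 ± 1.77), CK (7.77 ± 2.40), RT25d (5.08 ± 2.64), LT25d (5.06 ± 0.459), LT15d (3.09 ± 0.374) and LT1d (2.51 ± 0.562). RT15d stood above RT1d, and LT25d above LT15d, without overlap, while the other neighbours in the order overlapped. In the TMM-scaled fit LT25d and LT15d were closer, at -0.89 and -1.21 log2 units from CK (SE 0.31 and 0.32).

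The fall in LT was -1.22 on the log2 scale after 1 day (SE 0.32, edgeR adjusted p = 0.00261) and -1.59 after 15 days (SE 0.32, adjusted p = 0.000327), and both were called. RT was 3.36 times LT in FPKM after 1 day and 3.96 times after 15 days. After 25 days the change was 0.05 (SE 0.31, adjusted p = 0.919). The LT effect on day 25 differed from that on day 1 by 1.27 (adjusted p = 0.0208) and from that on day 15 by 1.64 (adjusted p = 0.00667), and both differences were called, whereas days 1 and 15 did not differ by the test (-0.37, adjusted p = 0.526). The difference between days 1 and 25 was lost at 0.94 without RT25d replicate 1 and at an adjusted p of 0.0564 without RT1d replicate 2.

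PH02Gene10197, the other 1a gene, followed neither of these. Its level before treatment was 9.35, 3.73 and 3.62 FPKM in CK, where replicate 1 was far above the other libraries. After 1 day it was 8.04, 10.8 and 9.15 FPKM in LT1d against 5.94, 5.58 and 7.34 FPKM in RT1d, with no overlap. After 15 days the order was reversed, with 8.73, 8.95 and 9.39 FPKM in LT15d against 15.0, 15.1 and 16.9 FPKM in RT15d. Every LT15d library was below every RT15d library. After 25 days it was 11.8, 11.2 and 13.4 FPKM in LT25d against 18.6, 15.5 and 13.4 FPKM in RT25d, and the groups met at their edges.

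The group means ran from RT25d (15.8 ± 2.62 FPKM, SD, n = 3) and RT15d (15.7 ± 1.04), which overlapped, through LT25d (12.1 ± 1.17) to LT1d (9.32 ± 1.37) and LT15d (9.02 ± 0.335), which also overlapped. RT1d (6.29 ± 0.926) and CK (5.57 ± 3.28) were lowest and overlapped each other. LT25d overlapped neither of its neighbours in this order, and LT15d did not overlap RT1d. This order is of FPKM without TMM scaling. In the TMM-scaled fit LT1d, LT15d and LT25d were 0.98, 0.89 and 0.91 log2 units above CK, so LT25d did not stand out from them there.

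The change of LT over RT was 1.09 on the log2 scale after 1 day (SE 0.24, edgeR adjusted p = 0.000616) and was called higher. It was -0.40 after 15 days (SE 0.23, adjusted p = 0.146) and -0.35 after 25 days (SE 0.23, adjusted p = 0.236), and neither was called. The ratio of mean FPKM on day 1 was 1.48, below 2-fold, and the call was lost when libraries were scaled by their size alone (0.62) and without LT1d replicate 2 (0.95). Scaling by library size moved the median of all tested genes from -0.06 to -0.53 in this comparison. The LT effect differed from that on day 1 by -1.49 on day 15 (adjusted p = 0.00147) and by -1.44 on day 25 (adjusted p = 0.00128), and both differences were called. Days 15 and 25 differed by 0.05 (adjusted p = 0.922).

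**Figure D2:**
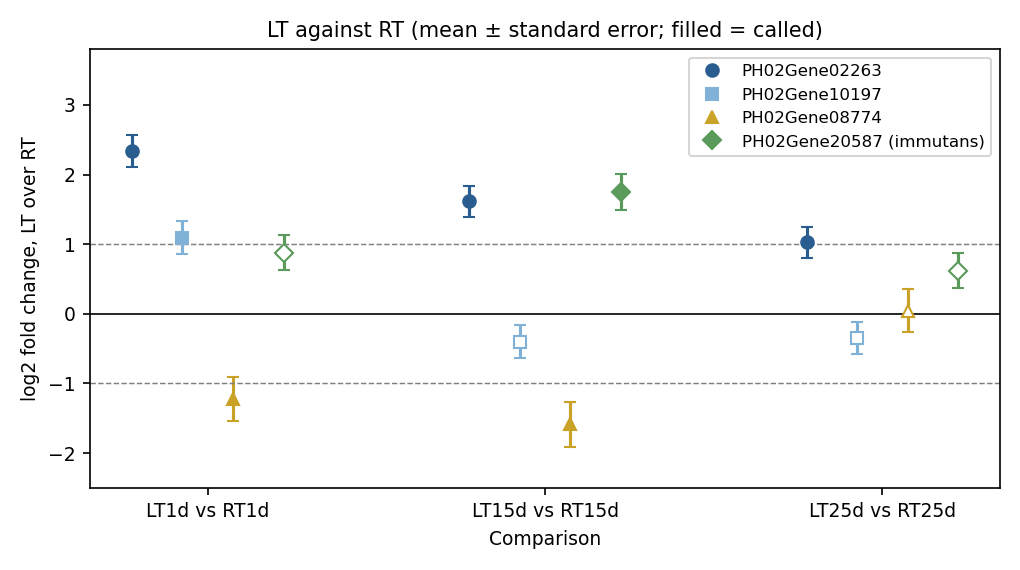
Log2 fold change of LT over RT (vertical axis) after 1, 15 and 25 days for the 3 alternative oxidase genes and the immutans gene PH02Gene20587. Whiskers show the standard error derived from edgeR's F statistic, filled symbols show called changes, and dashed lines lie at 2-fold. PH02Gene02263 falls from 2.34 to 1.03 and stays filled, whereas PH02Gene08774 moves from -1.22 to 0.05.

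In LT1d against RT1d, 3 of the 3 genes were called, 2 higher and 1 lower, where 44.2% of all tested genes were called. In LT15d against RT15d, 2 of 3 were called, 1 in each direction, with 40.1% of all tested genes called, and in LT25d against RT25d it was 1 of 3, with 24.5% called. Libraries of LT and RT did not overlap for 3, 3 and 1 of the 3 genes on days 1, 15 and 25, where 75.8%, 81% and 61.1% of all tested genes did not overlap. Calls were common among all genes, so these counts do not set the members apart from other genes. For the change of the LT effect between days 1 and 25, 3 of 3 were called, with 44.9% of all tested genes called. Between days 1 and 15 and between days 15 and 25 it was 1 of 3 each, beside 33.2% and 29.7% of all tested genes.

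The comparisons with CK share the same 3 CK libraries. PH02Gene02263 was called higher in LT1d (1.60, edgeR adjusted p = 1.26e-05) and LT15d (1.84, adjusted p = 2.22e-06), and in LT25d it was 0.95 above CK (adjusted p = 0.00167), under the 2-fold limit. PH02Gene08774 was called lower in LT1d (-1.46, adjusted p = 0.000859) and LT15d (-1.21, adjusted p = 0.00315), the latter lost at -0.94 without CK replicate 3. Thus 2 of 3 members were called in each of these, where 34% and 38.6% of all tested genes were called. PH02Gene10197 was called higher in RT15d (1.28, adjusted p = 0.000309) and RT25d (1.26, adjusted p = 0.000371), the single member called in each, where 25.7% and 26.2% of all tested genes were called. At 4 °C its values were 0.98, 0.89 and 0.91 above CK after 1, 15 and 25 days, each under the limit. Without CK replicate 1 they were 1.41, 1.33 and 1.36 and all 3 were called. For PH02Gene08774 in RT25d the change was -0.94 (adjusted p = 0.0203), not called, and it was called without CK replicate 1 (-1.18) or RT25d replicate 3 (-1.36).

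After 1 day at 25 °C no member reached a 2-fold change from CK. PH02Gene02263 was at -0.74 (edgeR adjusted p = 0.0123), with all RT1d libraries below CK, PH02Gene08774 at -0.24 and PH02Gene10197 at -0.12, and 0 of 3 were called by edgeR, by DESeq2 or by limma, where edgeR called 22.8% of all tested genes. A single member, PH02Gene02263, had an unadjusted p under 0.05. In LT25d against CK, 0 of 3 were called by edgeR and by DESeq2 and 2 of 3 by limma on log2(FPKM + 1), where edgeR called 28.3% of all tested genes, and 3 of 3 had an unadjusted p under 0.05 in edgeR.

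The FPKM of the 3 genes was summed to describe the level of the family. The sum was 23.9 ± 2.11 FPKM (SD, n = 3) in CK and 22.8 ± 0.904 in RT1d, whose libraries overlapped. At 4 °C it was 40.2 ± 1.29 after 1 day, 46.5 ± 2.06 after 15 days and 41.7 ± 1.49 after 25 days. At 25 °C it was 42.6 ± 1.12 after 15 days and 33.3 ± 5.62 after 25 days. The sum in LT was 1.76, 1.09 and 1.25 times that in RT on days 1, 15 and 25, and the libraries did not overlap on any of these days. On day 15 the groups were close in summed FPKM but differed in the genes that made it up. These sums leave out the TMM factors, 0.837 to 0.842 in LT15d and 1.07 in RT15d. The closeness on day 15 therefore holds for FPKM, and the sums were not compared under TMM scaling.

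PH02Gene02263 made up 70.6% ± 2.46 of the sum in LT1d and 35.5% ± 5.18 in RT1d (SD, n = 3). On day 15 it was 73.9% ± 1.35 in LT and 34.6% ± 0.788 in RT. On day 25 it was 58.8% ± 3.40 in LT and 35.9% ± 10.8 in RT, and in CK it was 44.5% ± 4.21. The share of this gene was higher in every LT library, 55.4% to 75.1%, than in any RT or CK library, 25.0% to 49.3%. PH02Gene08774 made up 6.26% of the sum in LT1d and 6.68% in LT15d against 36.9% in RT1d and 28.7% in RT15d. Its share was 12.2% in LT25d and 16.5% in RT25d, where single libraries ranged from 6.03% to 27.2%. PH02Gene10197 made up 19.4% to 29.1% by group mean in LT, and 27.6%, 36.7% and 47.6% in RT1d, RT15d and RT25d. Its share in RT25d was 47.5%, 47.6% and 47.8% in the 3 libraries, while the shares of the other members varied widely there.

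The ratio of PH02Gene02263 to PH02Gene08774 carries the same contrast within each library, where scaling cancels. It was 8.78 to 14.0 in LT1d and 0.715 to 1.32 in RT1d. It was 9.27 to 13.0 in LT15d and 1.13 to 1.30 in RT15d, and CK lay at 0.953 to 1.99. On day 25 it was 4.29 to 5.81 in LT and 0.917 to 7.71 in RT, so that the RT25d libraries spanned those of LT25d. Over the 21 libraries the levels of these genes had Pearson's r = -0.73 and Spearman's rho = -0.73 on log2(FPKM + 1). PH02Gene10197 had r = 0.26 with PH02Gene02263 and r = -0.10 with PH02Gene08774. These values describe 21 libraries in 7 groups that share the scaling and the group structure, and were not tested.

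**Figure D3:**
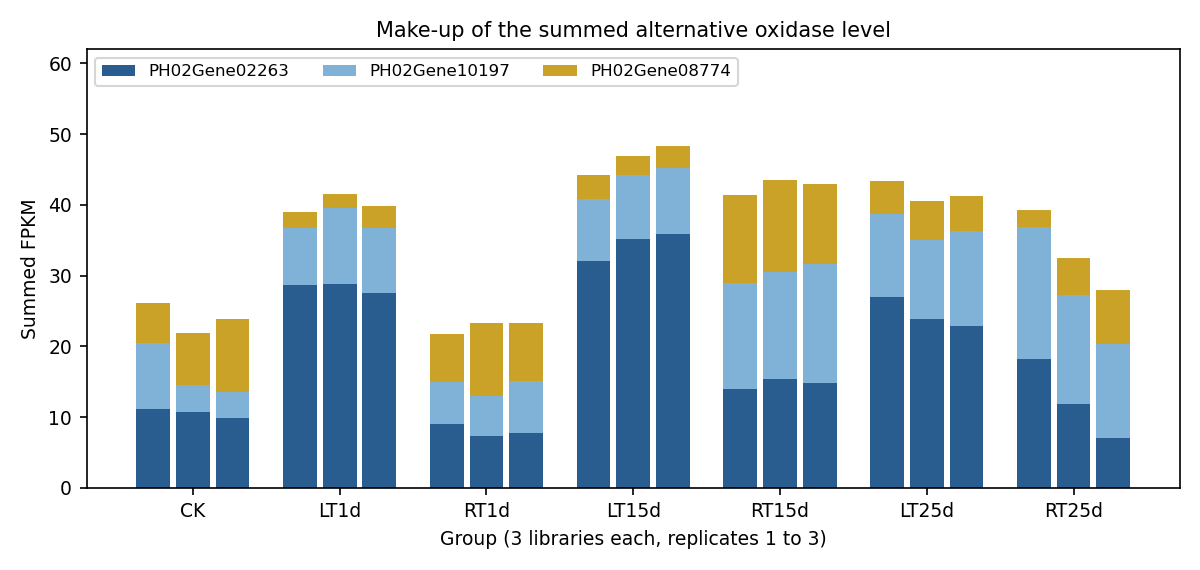
Summed FPKM of the 3 alternative oxidase genes in each of the 21 libraries (bars from 0, replicates 1 to 3 from left to right in each group), divided by gene. LT15d and RT15d reach 46.5 and 42.6 FPKM on average, with 73.9% and 34.6% of it from PH02Gene02263.

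The members were also set beside the genes most alike in pattern, by Pearson's r of log2(FPKM + 1) over the 21 libraries. For PH02Gene02263 these were PH02Gene11769, a hypothetical protein (r = 0.953), PH02Gene13119, a RABH1b-like small GTPase (r = 0.950), and PH02Gene39147, a probable chromatin-remodeling ATPase (r = 0.942). For PH02Gene10197 they were PH02Gene04659, a NAC domain protein (r = 0.913), PH02Gene03705, uncharacterized (r = 0.903), and PH02Gene26782, a cysteine-rich receptor-like kinase (r = 0.891). For PH02Gene08774 they were PH02Gene11576, a hypothetical protein (r = 0.961), PH02Gene19360, annotated as 2-methylene-furan-3-one reductase (r = 0.952), and PH02Gene22742, uncharacterized (r = 0.942). The choice depends on the measure: by Spearman's rho 1, 0 and 1 of the 3 genes were kept for PH02Gene02263, PH02Gene10197 and PH02Gene08774.

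Another gene, PH02Gene20587, carries the Gene Ontology term for alternative oxidase activity but is annotated as an immutans protein, and was compared after its values had been seen. Immutans is the plastid terminal oxidase of Arabidopsis, a relative of alternative oxidase that oxidises plastoquinol and is needed for carotenoid synthesis. Its level was higher than that of each member, 30.4 FPKM over the 21 libraries. On day 1 it was 28.4 FPKM on average in LT and 22.3 in RT (log2 0.88, edgeR adjusted p = 0.00515, under the 2-fold limit). On day 15 it was 41.6 in LT and 16.2 in RT and was called (1.75, adjusted p = 1.43e-05), and on day 25 it was 41.6 and 27.9 (0.62, adjusted p = 0.0503). Its CK libraries were at 17.4, 43.6 and 42.8 FPKM. Against CK it was at -0.14, 0.36 and -0.03 in LT1d, LT15d and LT25d, none called. It was called lower than CK in RT1d (-1.02) and RT15d (-1.39), and in RT25d (-0.65) it was not called. The RT1d call was lost in 9 of 16 alternatives and the RT15d call in 3 of 16. The largest log2 change of PH02Gene02263 was on day 1 and that of PH02Gene20587 on day 15, but the difference between these genes was not tested. The gene overlaps its neighbour PH02Gene20586 by 179 bases, and the counting is not stated to use strand.

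Alternative NAD(P)H dehydrogenases feed the same ubiquinone pool from the matrix side (internal type) or the outer side (external type). Of 8 such genes 6 were tested, and 3 rose in LT1d against RT1d, 4 rose and 1 fell in LT15d against RT15d, and 1 rose and 2 fell in LT25d against RT25d. Among all tested genes 20.8%, 19.3% and 11.3% were called higher and 23.4%, 20.8% and 13.2% lower on these days. PH02Gene27092, an internal A1 gene, had 168, 169 and 166 FPKM in LT1d against 4.02, 2.41 and 2.09 FPKM in RT1d (log2 6.41, edgeR adjusted p = 2.05e-09). After 25 days it was 2.61, 3.07 and 3.37 FPKM in LT25d against 19.9, 11.8 and 4.17 FPKM in RT25d (-1.96, adjusted p = 0.000298). PH02Gene02263 was still called higher on that day, so the oxidase and this dehydrogenase were called in the same direction on day 1 and in opposite directions on day 25. PH02Gene12603, an external B2 gene, rose by 2.44 on day 1 and 3.15 on day 15, and was at 0.43 on day 25, not called. PH02Gene17263, internal A1, rose by 2.22 on day 25, and PH02Gene03641, internal A1, fell by 1.39 on day 15 and by 1.71 on day 25. The list median was 1.40, 1.48 and -0.50 on days 1, 15 and 25, against -0.06, -0.02 and -0.02 over all tested genes. The median depended on which genes were kept, at 0.18 and -0.08 on days 1 and 25 with no filter and 2.32 and -0.82 with a mean FPKM of at least 5, and on day 1 it was 0.79 with limma on log2(FPKM + 1). The day 15 rises fell from 4 to 1 when the libraries within each of RT15d, LT15d and LT25d were added up.

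**Figure D4:**
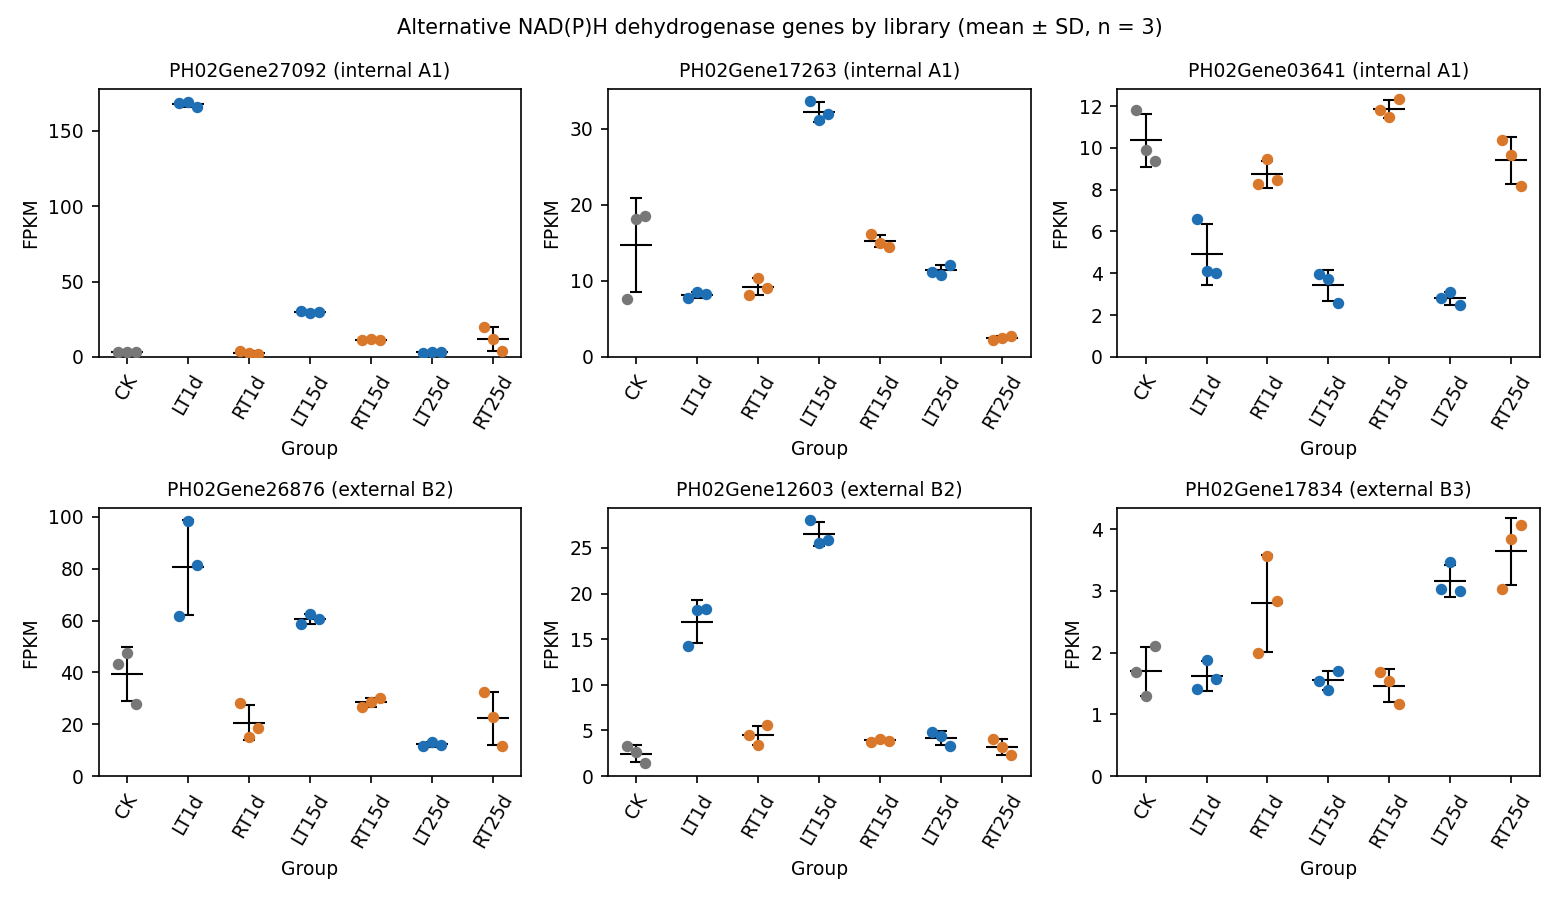
FPKM (vertical axes from 0, each on its own scale) of the 6 tested alternative NAD(P)H dehydrogenase genes in the 21 libraries, with LT in blue, RT in orange and CK in grey, and bars and whiskers for the mean and SD of 3 libraries. PH02Gene27092 stands at 166 to 169 FPKM in LT1d and at 2.61 to 3.37 FPKM in LT25d.

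Cytochrome c, the carrier between complexes III and IV that alternative oxidase bypasses, had 2 of 3 genes tested. Both rose on days 1 and 15, where 20.8% and 19.3% of all tested genes were called higher. PH02Gene40140 rose by 1.92 and 1.87, with levels of 109, 113 and 113 FPKM in LT1d against 47.3, 40.4 and 39.6 FPKM in RT1d. On day 25 neither was called, at 0.45 for PH02Gene40140 and 0.98 for PH02Gene15511, and on day 15 a single gene was called when the libraries within each of RT15d, LT15d and LT25d were added up. Of 5 tested genes annotated as uncoupling proteins, 2 were higher on day 1 and 1 was higher on day 25. On day 15, 2 were higher and 1 lower. The shares of all tested genes are those given for the dehydrogenases (20.8%, 19.3% and 11.3% higher on days 1, 15 and 25). PH02Gene13841 (type 5) had 44.3, 45.9 and 44.3 FPKM in LT1d against 17.0, 12.2 and 29.5 FPKM in RT1d, and on day 25 it rose by 1.31, a call lost when any LT25d library or RT25d replicate 2 or 3 was left out, while PH02Gene28514 (type 5) fell by 1.32 on day 15. PH02Gene34289 (type 3) was called higher on days 1 and 15 at no more than 1.96 FPKM, and was listed at 0 in all LT25d libraries.

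Most genes of complexes I to IV, which hold the cytochrome pathway and its feeders, were not called on day 1. In LT1d against RT1d, 8 of 29 tested complex I genes, 1 of 15 of complex II, 2 of 8 of complex III and 1 of 7 of complex IV were lower, with list medians of -0.73, -0.52, -0.30 and -0.69. Together these were 12 of 59 genes, or 20.3%, where 23.4% of all tested genes were called lower. Without RT1d replicate 1 the count for complex I was 5. The members of each that changed most were PH02Gene00683 (complex I, listed at 0 in all LT1d libraries and at 0.442, 1.36 and 0.347 FPKM in RT1d), PH02Gene35047 (complex II, -1.40), PH02Gene09192 (cytochrome c1, -2.16) and PH02Gene12974 (oxidase subunit 5b, -1.20). Setting PH02Gene00683 to a floor of 3 counts left the complex I median at -0.73. With scaling by library size alone 55.9% of the 59 genes and 34.3% of all tested genes were called lower, and with limma on log2(FPKM + 0.1) it was 61.0% and 35.9%. PH02Gene02263 was called higher on day 1 under both settings. On day 15 complex I had 2 higher (PH02Gene12273, an assembly factor, most, 1.42) and 5 lower (PH02Gene10960 most, -1.90). Complex II had 2 higher (PH02Gene36029 most, 1.28) and complex IV had 1 lower (PH02Gene13551, -1.11). Among all tested genes 19.3% were called higher and 20.8% lower on that day. On day 25 complex I had 1 higher (PH02Gene29550, 1.04) and 1 lower (PH02Gene07766, -1.56), and complex II had 3 higher (PH02Gene38484, an assembly factor, most, 1.46). Complex III had 2 higher (PH02Gene11650 most, 1.59) and complex IV had 1 higher (PH02Gene24442, 2.24). Among all tested genes 11.3% were called higher and 13.2% lower there. Of 16 tested ATP synthase genes, 1 was higher (PH02Gene14639, 1.80) and 4 lower (PH02Gene49719 most, -1.70) on day 1, and 2 were called each way on day 15. In carotenoid desaturation, the pathway that immutans serves, 1 of 3 genes was lower on day 1 (PH02Gene05482, -1.24), beside 23.4% of all tested genes.

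**Figure D5:**
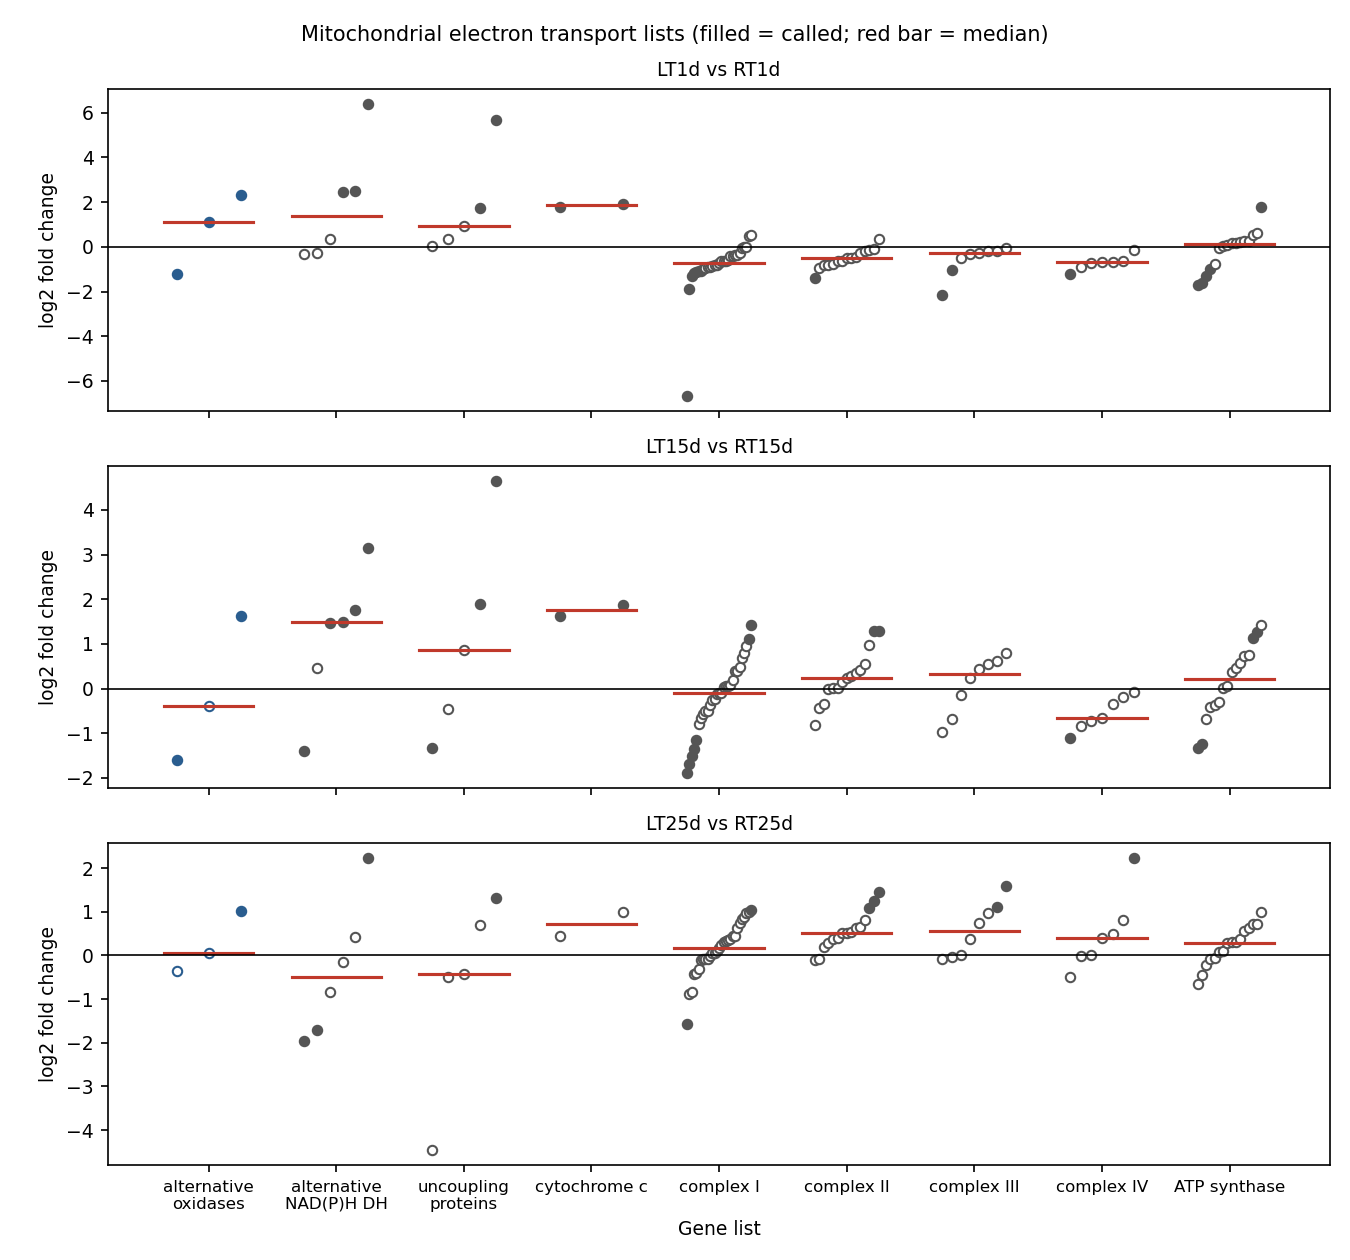
Log2 fold change of LT over RT (vertical axes) for each tested gene of 9 mitochondrial electron transport lists after 1, 15 and 25 days, with filled points for called genes, blue points for the alternative oxidases and red bars for list medians. On day 1 the medians of the alternative NAD(P)H dehydrogenases (1.40) and cytochrome c (1.85) are above 0 and those of complexes I to IV (-0.73 to -0.30) are below.

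Genes used as markers of tissue make-up moved in the same comparisons. Of 12 tested green tissue genes, 10 were lower and 1 was higher in LT1d against RT1d, where 23.4% and 20.8% of all tested genes were. The summed level of the list was 7.58 to 15.7 FPKM against 391 to 567 FPKM, while PH02Gene02263 was higher there. On day 15 the sum was 179 to 182 FPKM in LT15d and 320 to 355 FPKM in RT15d. Of the 12 genes 6 were lower and 2 higher, beside 20.8% and 19.3% of all tested genes. On day 25 the sum was 133 to 137 FPKM in LT25d and 45.0 to 125 FPKM in RT25d. There 5 of 12 were higher and 0 lower, beside 11.3% and 13.2% of all tested genes. Dividing cell markers summed to 23.6 to 34.1 FPKM in LT1d and 80.5 to 113 FPKM in RT1d, and 2 of 10 tested genes were lower, where 23.4% of all tested genes were. On day 15 they summed to 32.6 to 38.6 FPKM in LT15d and 69.0 to 71.0 FPKM in RT15d, and on day 25 to 97.8 to 113 and 111 to 139 FPKM, with 4 of 10 lower on each day beside 20.8% and 13.2% of all tested genes. Lignified tissue markers summed to 0.252 to 0.503 FPKM in LT1d and 0.293 to 6.45 FPKM in RT1d. On day 15 they summed to 1.86 to 2.07 FPKM in LT15d and 4.05 to 4.58 FPKM in RT15d, without overlap. On day 25 they were at 0.206 to 0.254 and 0.159 to 0.458 FPKM, and in CK at 1.40 to 2.44 FPKM. These levels are low, and 0 of 2 tested genes were called on each day, beside 44.2%, 40.1% and 24.5% of all tested genes. The part of these shifts in the changes of the 3 oxidase genes was not tested.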

How the data were processed

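Poly(A)-primed SMARTer cDNA of 21 culm libraries, 3 per group by the labels, was sequenced as paired ends. The study's methods name HISAT2, StringTie and ballgown, with the P. edulis genome, and the submitters' processing notes list cutadapt, FastQC and Salmon. The authors deposited FPKM per gene, scaled by gene length and mapped reads, and estimated counts, not normalized, and the sources used here do not name the tool that made the counts. All per-sample columns were used (0 left out).

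The deposited counts, whole numbers as given, were tested with edgeR 4.0.16 (R 4.3.3), using TMM scaling, 1 quasi-likelihood fit over 7 groups, a filter that kept genes reaching an FPKM of 1 in 3 or more libraries, and Benjamini-Hochberg adjustment over 29913 genes. Calls needed an adjusted p of at most 0.05 and a 2-fold change, the study's thresholds. Standard errors (SE) were derived as the absolute log2 change divided by the square root of edgeR's F statistic. The 12 comparisons were LT against RT on 3 days, 6 groups against CK and 3 differences of the LT effect between days. Levels and shares used FPKM, and with 3 libraries against 3 an exact permutation test cannot go below p = 0.1.

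Named genes were every member, the called gene with the largest rise and the largest fall of each list in each LT against RT comparison, and the 3 tested genes most alike in pattern for each member. Lists were made from words in the annotations, so those of complex I, complex II and ATP synthase include genes of assembly factors. No gene matched a manganese superoxide dismutase. The members and lists were chosen with earlier results of these data known. Alternatives were limma 3.58.1 on log2(FPKM + 1) and log2(FPKM + 0.1), DESeq2 1.42.0, other filters and scalings, a replicate block, only the compared groups, leaving out each library, and adding up the libraries within each of RT15d, LT15d and LT25d. On simulated data for LT1d against RT1d over 29913 genes, 28 of 100 2-fold and 71 of 100 4-fold changes were recovered, with 3 false calls. The simulated 2-fold changes lay at the limit for a call itself, so many would miss it at any power. The simulation also changed far fewer genes than the 44.2% called in the data, which affects the adjusted p. These rates are therefore not the sensitivity or error rate in the data.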

Additional observations from a re-analysis of the deposited data

Results flagged for a closer look

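In 5 cases the LT effect on an alternative oxidase gene differed between days by edgeR's test of the difference itself. For PH02Gene02263 the rise in LT was smaller on day 25 than on day 1, by -1.31 on the log2 scale (adjusted p = 0.00159). For PH02Gene08774 the effect on day 25 differed from that on day 1 by 1.27 (adjusted p = 0.0208) and from that on day 15 by 1.64 (adjusted p = 0.00667), since the fall on the earlier days was not seen on day 25. For PH02Gene10197 the effect differed from that on day 1 by -1.49 on day 15 (adjusted p = 0.00147) and by -1.44 on day 25 (adjusted p = 0.00128), with a rise on day 1 and values below RT later. Among all tested genes 33.2%, 44.9% and 29.7% were called for days 1 and 15, 1 and 25, and 15 and 25.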

How the results depend on the processing

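No direction of a called value of the oxidase genes was reversed under any alternative. Of the values of single genes 777 stayed on their side of the threshold, 19 gained a call and 44 lost it. Some values that were not called changed sign. PH02Gene08774 in LT25d against RT25d, for example, ran from -0.28 to 0.47 when 1 library was left out. When the libraries within each of RT15d, LT15d and LT25d were added up, which leaves fewer samples, the members called fell to 1 in LT15d against RT15d, 0 in LT25d against RT25d, 1 in LT15d against CK, 0 in RT15d against CK and 0 for each of the 3 differences between days. In LT25d against CK, 2 members were called with limma at either pseudocount, with a mean FPKM of at least 5 and with library size only, against 0. With only the compared groups 0 were called in RT25d against CK. For days 1 and 25, 1 difference was called with limma at either pseudocount and with library size only. Leaving out 1 library gave 2 to 3 members in LT1d against RT1d, 2 in LT15d against RT15d, 0 to 1 in LT25d against RT25d, 2 to 3 in LT1d against CK, 1 to 3 in LT15d against CK, 0 to 2 in LT25d against CK, 1 to 2 in RT25d against CK, and 1 to 3 for days 1 and 25. The day 1 call of PH02Gene10197 was lost with limma at 0.50 (pseudocount of 1) and with a mean FPKM of at least 5 at 0.97. Of the 3 genes most alike to PH02Gene02263, 1 was kept with TMM-scaled CPM and 1 with Spearman's rho, against 0 for PH02Gene10197 and 1 for PH02Gene08774 with Spearman's rho. The cause of these changes was not tested.

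Replicate numbers did not pair the libraries: 2 of 27 same-numbered pairs had deviations correlated above 0.1 (r from -0.13 to 0.13), and 6 of 27 libraries were most alike to their own number. With the replicate block, PH02Gene10197 was called in LT1d against CK (1.01), so that 3 members were called in place of 2, and the immutans gene PH02Gene20587 was no longer called in RT1d against CK (-0.98), while no other single value gained or lost a call.

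Scaling by library size only moved the share of higher among called genes from 47.0% to 29.3% on day 1 and from 48.0% to 32.3% on day 15. The lowest counts, those of PH02Gene08774, reached 126 in a library.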
